A study of Mus musculus with 4 samples.

Results

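Aminoacyl-tRNA synthetases join each amino acid to its tRNA, the step that sets the meaning of the genetic code. Most amino acids have a cytosolic enzyme for nuclear-encoded messages and a separate mitochondrial enzyme, encoded in the nucleus and imported, for the messages of the mitochondrial genome. Several cytosolic enzymes sit together in a large multisynthetase complex, and many cytosolic synthetase genes are induced by the transcription factor ATF4 when amino acids run short. The group described here holds 36 genes of the 37310 in the deposited tables, taken by gene symbol: 20 cytosolic synthetases, and 16 mitochondrial synthetases whose symbols end in 2. Every symbol matched a single row.

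Natural killer (NK) cells, lymphocytes of innate immunity, were sorted from bone marrow and profiled by RNA sequencing with Smart-seq2 libraries, which copy full-length cDNA. The 2 dKO libraries came from Gabpb1l-/-Gabpb2-/- mice, in which the long Gabpb1 isoform and Gabpb2 are both missing. The 2 Ctrl libraries came from littermate controls. All mice were C57BL/6 and aged 6 to 8 weeks, and cells were gated as CD3e-NK1.1+CD49b+. The transcription factor GABP binds DNA through its Ets-domain subunit Gabpa, which pairs with a beta subunit. The beta subunits missing in dKO mice are those that let such dimers join into a tetramer. The labels name no Cre line or other cell restriction and give no sex.

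Gene counts summed to between 30233870 and 34724516 per library. Gabpb2, the deleted subunit, had 2.64 and 2.85 CPM (the count scaled by the TMM library size) in the dKO libraries, against 36.5 and 30.4 CPM in the Ctrl libraries (edgeR adjusted p = 0.00126). Whole-gene counts cannot check the long Gabpb1 form: Gabpb1 was at 81.2 and 79.4 CPM in dKO and 57.1 and 52.0 CPM in Ctrl, and Gabpa at 102 and 98.4 CPM in dKO and 81.6 and 80.8 CPM in Ctrl, neither called. The 8 NK markers examined summed to 7032 and 7474 CPM in dKO and 9753 and 8697 CPM in Ctrl. Of these 8, 0 were called and 3 overlapped between groups. The log2 fold change was negative in 6, most so in Gzma (-0.89) and Prf1 (-0.51), and positive in 2 (Eomes and Klrd1). Transcripts of other cells were also present. The summed T cell markers (6 of 6 tested) were at 45.5 and 72.1 CPM in dKO and 193 and 207 CPM in Ctrl, and 2 of them (Cd3e and Trac) fell. The groups also differed in sex-linked RNA: Xist had 2 and 9 counts in dKO and 6066 and 6430 counts in Ctrl, and 4 Y-linked transcripts rose in dKO, with Ddx3y at 8933 and 6757 counts in dKO and 0 in either Ctrl library. Differences that go with sex and with genotype cannot be told apart in these 4 libraries. In the comparison of dKO with Ctrl, 85 of 13904 tested genes passed an adjusted p of 0.05 in edgeR's quasi-likelihood test (0.611%), with 44 higher and 41 lower in dKO.

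Compared per length, the cytosolic genes were far more abundant than the mitochondrial ones. TPM (the authors' value, scaled by transcript length and library) averaged over the 4 libraries ran between 33.2 and 326 for the cytosolic genes with a median of 81.3, and between 4.22 and 54.5 for the mitochondrial genes with a median of 14.2. In 13 of 16 mitochondrial genes the mean lay below that of the weakest cytosolic gene, and 16 of 20 cytosolic genes lay above the strongest mitochondrial gene. The median cytosolic TPM divided by the median mitochondrial TPM was 5.51 and 6.26 in dKO and 6.75 and 5.90 in Ctrl, so the groups overlapped in this ratio.

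**Figure D1:**
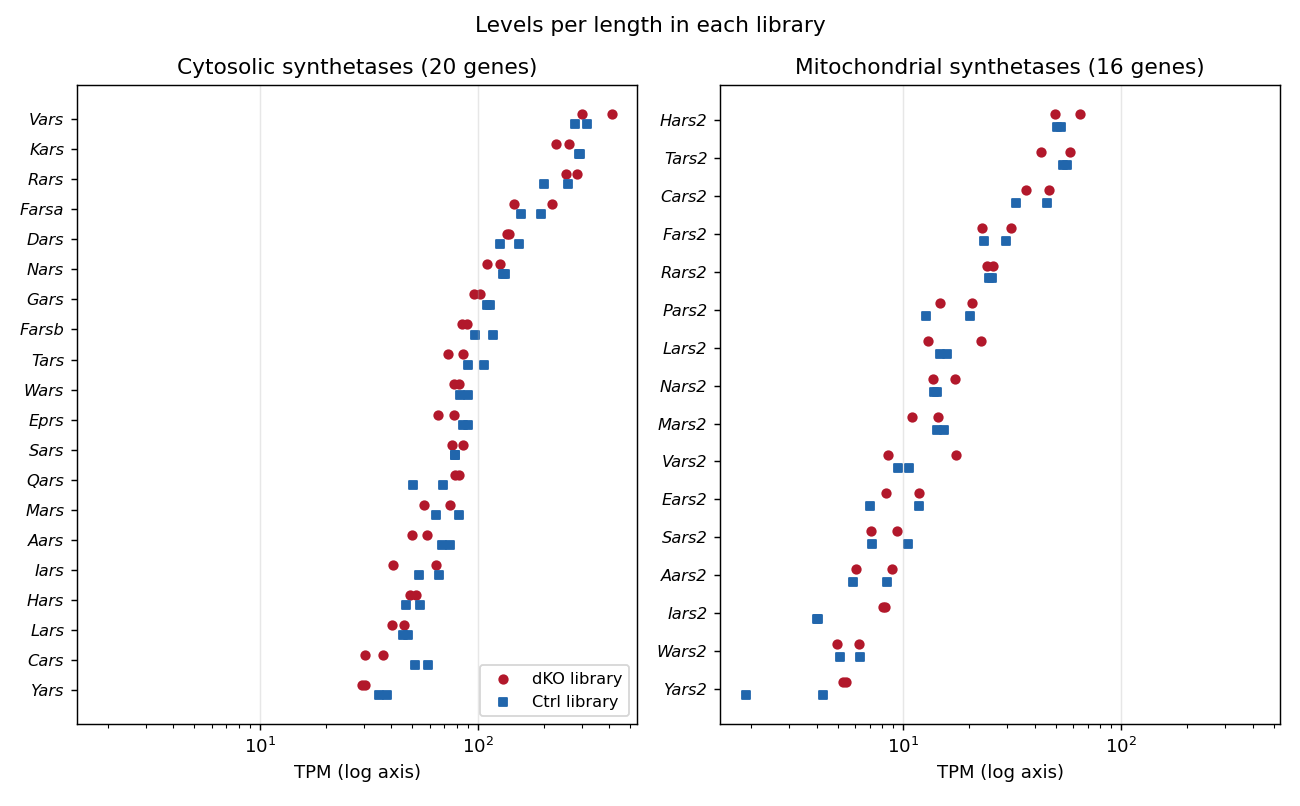
TPM of each synthetase gene on a log axis, cytosolic genes on the left and mitochondrial genes on the right, ordered by mean TPM. Red circles are the dKO libraries and blue squares the Ctrl libraries. Vars is at the top of the cytosolic genes with a mean of 326 TPM and Yars2 at the bottom of the mitochondrial genes with 4.22 TPM.

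At the top of the cytosolic order stood Vars, the valyl-tRNA synthetase gene, with 410 and 299 TPM in dKO and 278 and 315 TPM in Ctrl. Kars, whose single gene gives the lysyl enzyme of both compartments, had 260.02 and 228 TPM in dKO and 293 and 291 TPM in Ctrl. Rars, the arginyl enzyme of the multisynthetase complex, had 283 and 253 TPM in dKO and 259.7 and 200.2 TPM in Ctrl. The libraries of these 3 genes overlapped, so their order is not fixed beyond the spread. The lowest cytosolic levels belonged to the genes of the tyrosyl enzyme, Yars (33.2 TPM on average), the cysteinyl enzyme, Cars (44.4 TPM), and the leucyl enzyme, Lars (44.7 TPM).

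Among the mitochondrial genes, the histidyl enzyme gene Hars2 was highest, with 64.5 and 49.9 TPM in dKO and 50.8 and 53.0 TPM in Ctrl. The threonyl enzyme gene Tars2 averaged 52.8 TPM and Cars2 40.5 TPM, and the libraries of Tars2 and Hars2 overlapped. The lowest were Iars2 (isoleucine, 6.11 TPM), Wars2 (tryptophan, 5.68 TPM) and Yars2 (tyrosine, 4.22 TPM). Counts per library ran between 102, for Yars2 in Ctrl 2, and 18243, for Vars in dKO 1. Of the mitochondrial genes, 10 had under 1000 counts in every library, so counting error weighs more on them.

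None of the 36 synthetase genes was called at an adjusted p of 0.05 in edgeR, and none with DESeq2 or limma-voom. The smallest adjusted p in edgeR was 0.213. At an unadjusted p under 0.05, 1 gene was higher in dKO (Iars2) and 1 was lower (Aars), against 10.6% of all tested genes (5.24% higher and 5.34% lower). Standard errors of the log2 fold change ran between 0.14 and 0.22 for the cytosolic genes and between 0.16 and 0.38 for the mitochondrial ones, so changes of the size seen here could be missed at this depth and number of mice.

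The direction of the uncalled differences was not alike in the classes. Of 20 cytosolic genes, 14 had a negative log2 fold change (dKO minus Ctrl), with a median of -0.17 and a range between -0.44 and 0.18. Of 16 mitochondrial genes, 5 were negative, with a median of 0.07 and a range between -0.27 and 0.86. Over all tested genes the median was 0.01, with 48.4% negative and 51.6% positive. Over the tested genes with a mean above 100 CPM it was -0.04, with 57.2% negative. Of the 15 cytosolic genes above that level, 11 were negative, with a median of -0.16. Both dKO libraries lay below both Ctrl libraries in CPM for 11 of 20 cytosolic genes (Aars, Cars, Eprs, Farsb, Gars, Iars, Kars, Lars, Nars, Tars and Yars) and for 1 of 16 mitochondrial genes (Mars2). This held for 19.9% of all tested genes and for 26.9% of the 2312 genes with a mean above 100 CPM, where 8 of 15 cytosolic genes had it. Both dKO libraries lay above both Ctrl libraries for 0 of 20 cytosolic and 2 of 16 mitochondrial genes (Iars2 and Yars2). That was so for 21.7% of all tested genes and for 15.4% of those with a mean above 100 CPM. In TPM the lower arrangement held for 10 cytosolic and 0 mitochondrial genes, against 18.3% of all tested genes. The higher one in TPM held for 1 cytosolic gene (Qars, with 78.7 and 81.7 TPM in dKO and 50.3 and 69.3 TPM in Ctrl) and 2 mitochondrial genes, also against 18.3%.

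**Figure D2:**
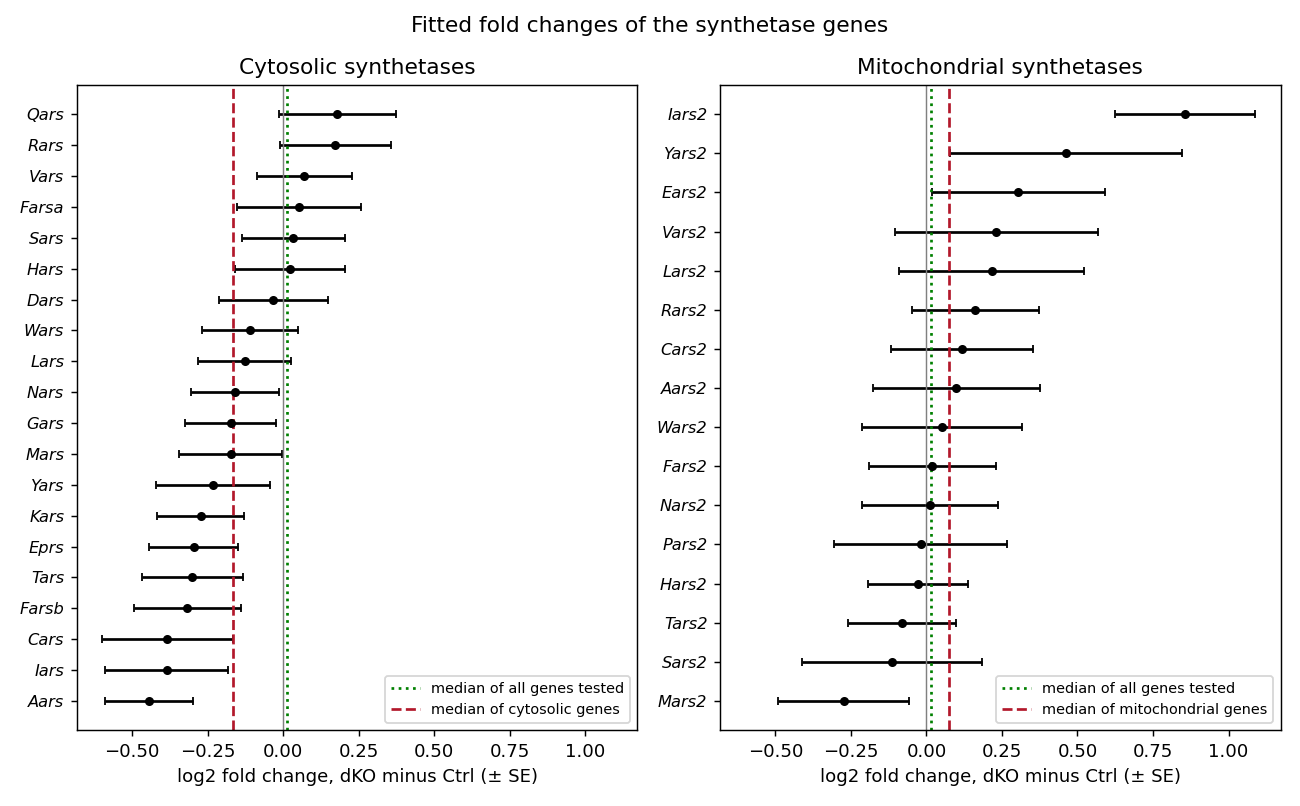
Log2 fold change of each synthetase gene, dKO minus Ctrl, with its standard error from the edgeR fit. The dashed line is the median of the class (-0.17 for cytosolic, 0.07 for mitochondrial genes) and the dotted line the median of all tested genes (0.01). No gene passed the threshold.

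The same contrast can be seen library by library. The mean log2 CPM over the cytosolic genes was 7.04 in dKO 1 and 7.05 in dKO 2, against 7.25 in Ctrl 1 and 7.12 in Ctrl 2. The mean over the mitochondrial genes was 4.54 in both dKO libraries, against 4.47 in Ctrl 1 and 4.37 in Ctrl 2. The difference of cytosolic minus mitochondrial means was 2.49 and 2.51 in dKO and 2.78 and 2.75 in Ctrl. The groups did not overlap in any of these 3 values. Taken singly, 13 of the 16 mitochondrial genes overlapped in CPM. The largest log2 fold changes of that class were those of Iars2 (0.86) and Yars2 (0.46), and its mean without them was not computed. The groups also did not overlap in the share of reads outside genes, which was 23.8% and 24.3% in dKO and 18.1% and 21.5% in Ctrl. The number of genes with a count did not overlap either, at 19450 and 19220 in dKO and 15921 and 18206 in Ctrl. Ctrl 1 stood apart: across genes, the log2 CPM of Ctrl 2 correlated 0.961 with both Ctrl 1 and dKO 1. Without Ctrl replicate 1, 15 of 20 cytosolic and 6 of 16 mitochondrial genes were negative, with medians of -0.13 and 0.10. The part of these library differences was not tested further. They are given without a p, since the genes were chosen with earlier results of these data known, and since an exact permutation of 2 against 2 libraries cannot go below 0.333. Markers of dividing cells moved the same way as the cytosolic genes: all 6 had negative log2 fold changes, 0 were called, and their summed CPM was 201 and 372 in dKO and 644 and 442 in Ctrl. Early neutrophil granule genes were lower too: Mpo was at 59.7 and 55.5 CPM in dKO and 348 and 104 CPM in Ctrl, and Elane and Prtn3 also did not overlap between groups (log2 fold changes -1.97, -1.99 and -1.75, none called). Ly6c2, of the monocyte list, was at 104 and 187 CPM in dKO and 347 and 349 CPM in Ctrl (edgeR adjusted p = 0.0994), and the early B cell gene Igll1 at 0.778 and 0.496 CPM in dKO and 5.46 and 2.50 CPM in Ctrl. The other 4 neutrophil markers and the other 3 monocyte markers overlapped. The part of all these markers in the difference, like that of the T cell markers above, was not tested. In these sorted samples fewer cells of a type and less RNA per cell cannot be told apart.

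**Figure D3:**
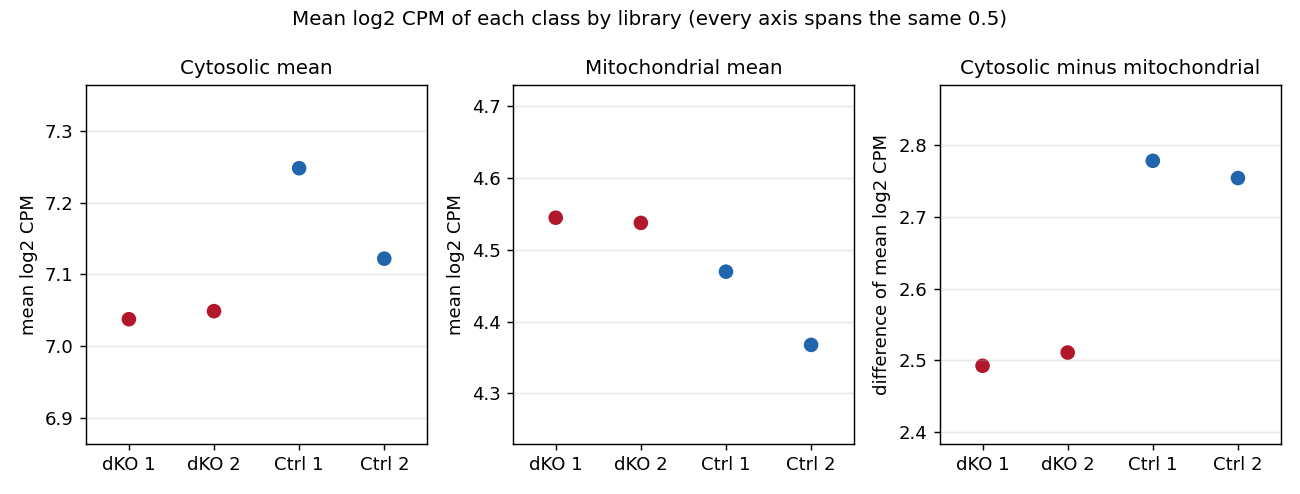
Mean log2 CPM over the 20 cytosolic genes, over the 16 mitochondrial genes, and their difference, with 1 point per library (dKO red, Ctrl blue). The difference is 2.49 and 2.51 in dKO and 2.78 and 2.75 in Ctrl.

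Of all members, Iars2 had the smallest p and the largest fold change. It encodes the mitochondrial isoleucyl-tRNA synthetase, needed to translate the isoleucine codons of the mitochondrial genome. Its counts were 673 and 692 in dKO and 418 and 396 in Ctrl, or 20.9 and 22.9 CPM in dKO and 12.3 and 11.9 CPM in Ctrl. The means were 21.9 ± 1.38 CPM in dKO and 12.1 ± 0.243 CPM in Ctrl (SD, n = 2 each), and the gap was wider than the spread within each group. The fitted difference was 1.81-fold (log2 fold change 0.86 with SE 0.23; adjusted p = 0.213 in edgeR). DESeq2 gave an adjusted p = 0.0783. TPM was 8.09 and 8.24 in dKO and 4.04 and 4.08 in Ctrl. Iars2 lies on chromosome 1 between 185284726 and 185329396 on the minus strand (GRCm38). Its exons overlap those of Rab3gap2 and 2010103J01Rik, both on the other strand. Rab3gap2 itself was at 100.1 and 82.2 CPM in dKO and 97.2 and 99.6 CPM in Ctrl. The level of 2010103J01Rik was not examined.

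Aars, the cytosolic alanyl-tRNA synthetase gene, had the second smallest p. An editing defect of this enzyme, which lets serine be joined to the alanine tRNA, causes neuron loss in the sticky mouse. Aars had 179 and 175 CPM in dKO and 237 and 245 CPM in Ctrl. The 4 libraries thus fell into separate groups, with means of 177 ± 2.27 CPM in dKO and 241 ± 6.17 CPM in Ctrl (SD, n = 2 each). The log2 fold change was -0.44 (SE 0.14, edgeR adjusted p = 0.312). The gene lies on chromosome 8 between 111033144 and 111057664 (GRCm38, plus strand). The RefSeq start used below for its promoter window lies inside these bounds. Exons of Aars overlap those of Exosc6 on the same strand and Gm24103 on the other, neither of which was examined. Aars2, the mitochondrial counterpart of Aars, had 18.5 and 14.0 CPM in dKO and 12.8 and 17.5 CPM in Ctrl, with overlapping groups.

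Next in order of p came 4 cytosolic genes whose groups also did not overlap in CPM. Eprs encodes a fused enzyme that charges glutamate and proline tRNAs and sits in the complex, and it had 224 and 218 CPM in dKO and 286 and 257 CPM in Ctrl (log2 fold change -0.30, SE 0.15, edgeR adjusted p = 0.556). Kars was at 273.4 and 273.1 CPM in dKO and 340.1 and 320.1 CPM in Ctrl (log2 fold change -0.27, SE 0.14). Iars, the cytosolic isoleucyl enzyme of the complex, had 93.4 and 71.4 CPM in dKO and 121 and 94.3 CPM in Ctrl, and its TPM values overlapped (log2 fold change -0.39, SE 0.20). That value was -0.20 without Ctrl replicate 1, -0.21 without dKO replicate 2 and -0.59 without dKO replicate 1. Tars, the threonyl enzyme, had 132 and 124 CPM in dKO and 173 and 142 CPM in Ctrl (log2 fold change -0.30, SE 0.17, and -0.16 without Ctrl replicate 1).

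**Figure D4:**
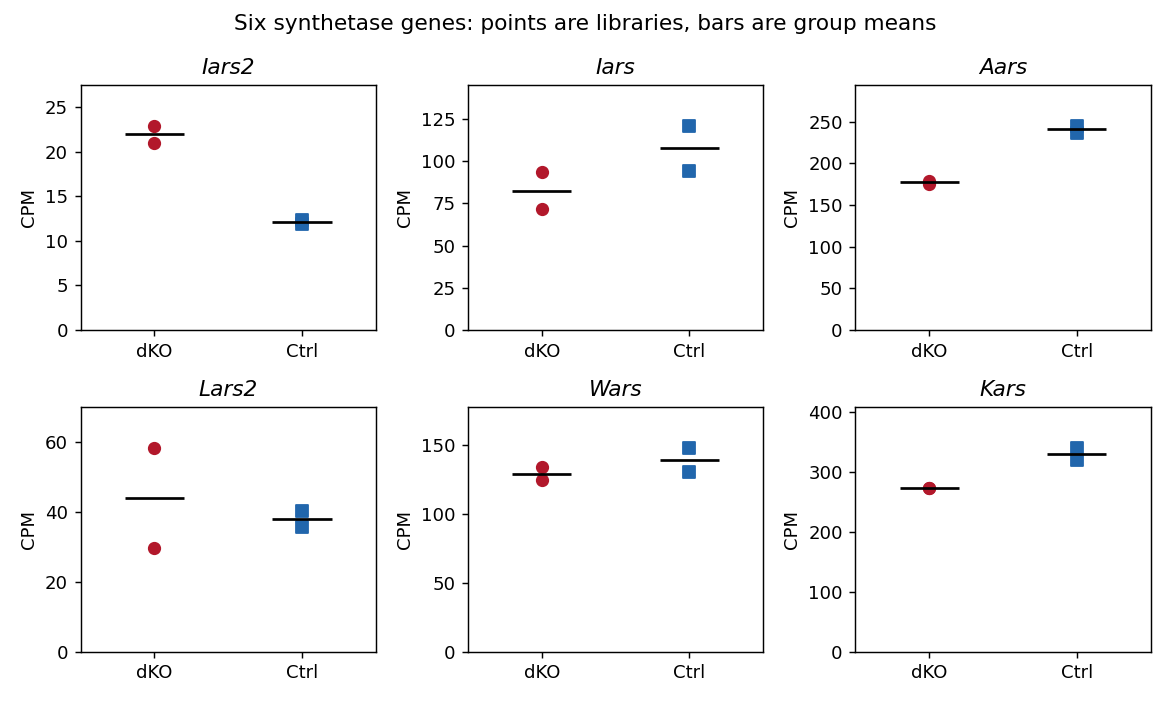
CPM of Iars2, Iars, Aars, Lars2, Wars and Kars in the dKO (circles) and Ctrl (squares) libraries, with bars at the group means and every axis starting at 0. Iars2 is higher in both dKO libraries (20.9 and 22.9 CPM) than in both Ctrl libraries (12.3 and 11.9 CPM), while Lars2 spreads between 29.8 and 58.5 CPM within dKO.

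Of the 8 cytosolic enzymes that belong to the multisynthetase complex (Dars, Eprs, Iars, Kars, Lars, Mars, Qars and Rars), 6 had a negative log2 fold change and the median was -0.15. Of the 12 outside it, 8 were negative and the median was -0.17, so the classes gave like values. Within the complex Rars and Qars had positive values: Qars, the glutaminyl enzyme, was at 78.2 and 100.01 CPM in dKO and 71.3 and 86.1 CPM in Ctrl, and Rars at 305 and 314 CPM in dKO and 318 and 230.2 CPM in Ctrl, each with overlapping groups. The 3 scaffold proteins of the complex, Aimp1, Aimp2 and Eef1e1, gave 0 calls (edgeR, and 0 at an unadjusted p under 0.05) and a median of -0.33. Aimp1 was at 17.2 and 24.985 CPM in dKO and 24.3 and 16.2 CPM in Ctrl, Aimp2 at 26.4 and 31.4 CPM in dKO and 43.3 and 29.2 CPM in Ctrl, and Eef1e1 at 3.45 and 7.84 CPM in dKO and 11.2 and 6.57 CPM in Ctrl. All 3 overlapped between groups in CPM. In TPM Aimp2 did not, at 62.1 and 63.73 TPM in dKO and 97.98 and 64.63 TPM in Ctrl.

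Outside the complex, the phenylalanyl enzyme is built of an alpha subunit, Farsa, and a beta subunit, Farsb. Farsa had 227 and 167 CPM in dKO and 215 and 165 CPM in Ctrl, with replicates further apart than the groups. Farsb had 100.4 and 107 CPM in dKO and 145 and 114 CPM in Ctrl, without overlap (log2 fold change -0.32, SE 0.18, edgeR adjusted p = 0.605). Its log2 fold change was -0.14 without Ctrl replicate 1 and -0.48 without Ctrl replicate 2. Gars, whose single gene gives the glycyl enzyme of both compartments, had 134 and 144 CPM in dKO and 159 and 155 CPM in Ctrl, without overlap (log2 fold change -0.17, SE 0.15). Hars, the histidyl enzyme gene, had 54.3 and 63.4 CPM in dKO and 55.3 and 60.4 CPM in Ctrl. Nars, the asparaginyl enzyme gene, had 192 and 187 CPM in dKO and 218 and 206 CPM in Ctrl. Wars, the tryptophanyl enzyme gene known to be induced by interferon in human cells, had 125 and 134 CPM in dKO and 149 and 131 CPM in Ctrl, and the groups overlapped (log2 fold change -0.11, SE 0.16, edgeR adjusted p = 0.883). Its log2 fold change was -0.017 without Ctrl replicate 1 and -0.20 without Ctrl replicate 2. Vars, Sars, Hars and Dars also overlapped, with log2 fold changes between -0.03 and 0.07.

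The other mitochondrial genes mostly varied within groups as much as between them. Yars2 was at 5.60 and 5.43 CPM in dKO and 4.93 and 3.07 CPM in Ctrl, without overlap (log2 fold change 0.46, SE 0.38). Its log2 fold change was 0.84 without Ctrl replicate 1 and 0.16 without Ctrl replicate 2. Mars2, the methionyl enzyme, was at 22.9 and 20.0 CPM in dKO and 27.5 and 24.3 CPM in Ctrl (log2 fold change -0.27, SE 0.22, and -0.18 without dKO replicate 2). Vars2, the valyl enzyme, had 22.7 CPM in dKO 1 and 12.0 CPM in dKO 2, against 13.0 and 16.5 CPM in Ctrl. Ears2, which charges both glutamate and glutamine tRNAs in mitochondria, had 13.3 and 18.2 CPM in dKO and 14.6 and 10.8 CPM in Ctrl. Lars2, the leucyl enzyme, had 29.8 CPM in dKO 1 and 58.5 CPM in dKO 2, against 40.4 and 35.7 CPM in Ctrl, and its log2 fold change of 0.22 turned to -0.35 without dKO replicate 2.

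Each mitochondrial gene was also set beside a cytosolic gene for the same amino acid, in 16 pairs in which Eprs serves for both Ears2 and Pars2. Farsa alone stood for the phenylalanyl enzyme, and Dars, Farsb, Gars, Kars and Qars were in no pair. The cytosolic TPM was higher in every library in 14 pairs, with median ratios of up to 29.8 for Vars over Vars2. The exceptions were Hars over Hars2 (median ratio 0.972), divergent neighbours whose exons overlap, and Cars over Cars2 (1.06). In the cysteine pair the ratio was 0.779 and 0.828 in dKO and 1.29 and 1.57 in Ctrl, so that the mitochondrial gene had the higher TPM in both dKO libraries and the cytosolic gene in both Ctrl libraries. In the isoleucine pair the ratio of Iars to Iars2 was 7.94 and 4.97 in dKO and 16.4 and 13.1 in Ctrl. The ratio was lower in both dKO libraries than in both Ctrl libraries in 5 pairs (alanine, cysteine, isoleucine, asparagine and tyrosine). It was higher in 1 pair (arginine) and overlapping in 10. No share over other pairs of genes was computed, so these counts have no reference. In the tyrosine pair it was 5.38 and 5.76 in dKO, 8.21 in Ctrl 1 and 20.1 in Ctrl 2, where Yars2 had 1.89 TPM. None of these ratios was tested.

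Promoter windows of 250 bases before and 50 bases after the transcription start (RefSeq, GRCm38.p6) were matched to 27 of the 36 genes. That is 75% of them, under the 80% set for a statement on the whole list, so the motif search is void as a comparison of classes and is given gene by gene. No window was matched to Cars, Hars, Lars, Nars, Rars, Vars, Wars, Hars2 or Pars2, so these genes were not searched for any motif. The letters CCGGAAG, the core that GABP and other Ets factors bind, were found on either strand in 19.7% of the 9175 tested genes with a window and in 8.86% of all 32851 windows. They were present in Cars2, Farsa, Gars, Kars, Mars, Mars2, Rars2, Sars and Sars2. The log2 fold changes of these genes lay between -0.27 and 0.16, and none was called. The sequences of 4 of them are shown up to the start, to give the place of the motif, which is in capitals.
Farsa promoter, chr8:84856886-84856985, plus strand: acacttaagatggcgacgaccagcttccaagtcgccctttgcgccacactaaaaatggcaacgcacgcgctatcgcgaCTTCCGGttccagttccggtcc
Mars promoter, chr10:127311787-127311886, minus strand: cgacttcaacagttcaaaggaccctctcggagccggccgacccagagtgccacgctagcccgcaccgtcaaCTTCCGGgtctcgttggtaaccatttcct
Mars2 promoter, chr1:55237077-55237176, plus strand: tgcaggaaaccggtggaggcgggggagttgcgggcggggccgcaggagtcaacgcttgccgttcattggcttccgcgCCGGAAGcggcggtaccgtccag
Cars2 promoter, chr8:11550772-11550871, minus strand: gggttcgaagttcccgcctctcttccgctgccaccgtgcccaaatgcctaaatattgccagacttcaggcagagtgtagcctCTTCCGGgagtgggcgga
The motif began at -22 in Farsa, -29 in Mars, -23 in Mars2 and -18 in Cars2, where -1 is the last base before the start.

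The letters TGATGNAA, a form of the C/EBP-ATF element that ATF4 binds, were found in 2.82% of the tested genes with a window and in 3.97% of all windows, on either strand. They were present in Aars, Gars, Iars, Tars and Yars. The log2 fold changes of these genes lay between -0.44 and -0.17, and none was called. The interferon-stimulated response element, searched by its core letters on both strands, was found in 3.90% of the tested genes with a window and in 3.44% of all windows. Among the members with a window it was found in Qars. Wars had no window and was not searched. The windows of Aars, Gars and Tars are shown for the element before the start, and that of Iars2 because this gene had the smallest p.
Aars promoter, chr8:111033592-111033841, plus strand: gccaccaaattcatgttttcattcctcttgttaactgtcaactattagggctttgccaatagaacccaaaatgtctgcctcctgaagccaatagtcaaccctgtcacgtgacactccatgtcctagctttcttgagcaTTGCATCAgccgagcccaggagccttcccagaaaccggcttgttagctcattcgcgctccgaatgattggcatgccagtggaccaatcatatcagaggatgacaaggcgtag
Gars promoter, chr6:55037751-55038000, plus strand: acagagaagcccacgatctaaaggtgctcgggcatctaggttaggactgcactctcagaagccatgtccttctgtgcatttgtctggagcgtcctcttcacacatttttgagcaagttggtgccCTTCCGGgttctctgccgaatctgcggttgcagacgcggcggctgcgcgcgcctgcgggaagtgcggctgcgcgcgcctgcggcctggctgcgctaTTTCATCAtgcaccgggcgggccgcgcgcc
Tars promoter, chr15:11399659-11399758, minus strand: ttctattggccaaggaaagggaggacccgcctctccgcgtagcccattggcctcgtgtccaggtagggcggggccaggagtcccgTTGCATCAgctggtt
Iars2 promoter, chr1:185329402-185329651, minus strand: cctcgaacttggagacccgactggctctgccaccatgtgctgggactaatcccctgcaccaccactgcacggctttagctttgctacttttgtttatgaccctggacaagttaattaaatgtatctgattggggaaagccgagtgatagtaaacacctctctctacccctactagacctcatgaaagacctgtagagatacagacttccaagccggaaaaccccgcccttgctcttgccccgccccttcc
Capitals mark the C/EBP-ATF element at -112 in Aars, -30 in Gars and -15 in Tars, and in Gars also the Ets core at -126. Iars2 has none of the 3 motifs in its window. A match is a run of letters and not a measured binding site.

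Genes of the amino acid response, in which the kinase GCN2 senses uncharged tRNA and ATF4 switches on its targets, gave 0 calls among 16 tested of 20 listed (edgeR). At an unadjusted p under 0.05, 2 were higher and 3 lower in dKO, 11 had a negative log2 fold change, and the median was -0.27. Eif2ak4, the gene of GCN2, was at 35.3 and 34.4 CPM in dKO and 24.2 and 23.8 CPM in Ctrl (log2 fold change 0.54, SE 0.20, edgeR adjusted p = 0.391). Atf4 was at 293 and 259 CPM in dKO and 300.3 and 161 CPM in Ctrl, with overlapping groups. The 3 genes with the smallest p were Ppp1r15a, Mthfd2 and Psat1. Ppp1r15a, which encodes a regulatory subunit of the phosphatase that reverses the response, was at 193 and 147 CPM in dKO and 84.6 and 97.0 CPM in Ctrl (log2 fold change 0.91, SE 0.19, edgeR adjusted p = 0.101). Mthfd2, a mitochondrial folate enzyme gene, was at 10.4 and 13.9 CPM in dKO and 38.4 and 23.2 CPM in Ctrl (log2 fold change -1.34, SE 0.30, edgeR adjusted p = 0.137). Psat1, of serine synthesis, was at 38.3 and 61.1 CPM in dKO and 133 and 73.6 CPM in Ctrl (log2 fold change -1.05, SE 0.32, edgeR adjusted p = 0.269). Asns and Ddit3, other textbook targets of this response, overlapped between groups. Sesn2 did not, at 48.4 and 39.0 CPM in dKO and 58.1 and 67.2 CPM in Ctrl (log2 fold change -0.52, SE 0.20, edgeR adjusted p = 0.406). Shmt2, Aldh18a1 and the weakly expressed Trib3 were also lower without overlap. Of the 16 tested, 6 were lower and 2 higher in both dKO libraries than in both Ctrl libraries. Over all tested genes these shares were 19.9% and 21.7%.

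Amino acid transporters, which supply the substrates of the synthetases, gave 0 calls among 9 tested of 10 listed (edgeR, and 0 at an unadjusted p under 0.05), with 8 negative and a median of -0.15. Slc7a5, of the large neutral amino acid carrier, was low, with 2.40 and 2.18 CPM in dKO and 3.79 and 3.495 CPM in Ctrl, and its groups did not overlap. Slc38a2, a glutamine carrier gene, was at 127 and 133 CPM in dKO and 148 and 139 CPM in Ctrl, and Slc7a6 at 56.3 and 38.8 CPM in dKO and 56.3 and 52.5 CPM in Ctrl. Slc3a2, which encodes the partner chain of Slc7a5, was at 127 and 145 CPM in dKO and 117 and 138 CPM in Ctrl. The 5 tested helpers of mitochondrial charging also gave 0 calls and a median of -0.07. Trnt1, which adds the CCA end to tRNAs, was at 31.1 and 34.6 CPM in dKO and 43.1 and 39.3 CPM in Ctrl (log2 fold change -0.33, SE 0.19, edgeR adjusted p = 0.632). Gatc, a subunit of the enzyme that turns the charged glutamate into glutamine, was at 28.3 and 30.7 CPM in dKO and 26.3 and 26.1 CPM in Ctrl. Mtfmt, which formylates the initiator methionine, was at 15.0 and 13.9 CPM in dKO and 17.2 and 16.1 CPM in Ctrl.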

How the data were processed

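RNA was measured in 2 dKO and 2 Ctrl libraries of sorted bone marrow NK cells. The build mm9 and the programs TopHat2 2.1.1, HTSeq 0.6.1, RSEM 1.3.0, Trimmomatic 0.36, DESeq2 1.32.0 and FastQC 0.11.5 appear in the submitters' processing notes. No source used here gives the strand setting. Whole-number counts for each gene were deposited, beside tables of expected counts, TPM and FPKM, per the file headers. The deposited TPM described levels, and the deposited FPKM was not used. The whole-number counts were about 2.05 to 2.07 times the expected counts, so counting error may be larger than they alone would give. Rows for reads outside genes (18.1% to 24.3% of counted reads) or with several possible genes (2.20% to 2.34%) stayed out of library sizes and tests.

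Counts were tested with edgeR 4.0.16 (quasi-likelihood, robust, TMM, minimum count of 10) in R 4.3.3 over all 13904 genes kept, with Benjamini-Hochberg adjustment. All 36 synthetase genes passed this filter. Standard errors were derived from each gene's log2 fold change and F value (|log2 fold change| over the root of F). Alternatives were DESeq2 1.42.0, limma-voom (limma 3.58.1), other scalings and filters, rounded expected counts, a replicate block and leaving out each library. The procedure was also run on simulated counts, with planted changes larger than any fitted here for a synthetase gene. That run does not show whether changes of the size reported here can be found. Members and lists were chosen with earlier results of these data known. All members could be named, and of each companion list the 3 with the smallest p, with others named after their values were seen. A gene that this rule would name is not reported here. Positions and exon overlaps are from GENCODE M21 (GRCm38), not the build of the counts. Exons of 13 members overlap another gene there, and for these, with no stated strand setting, reads may not be separable. P-values rest on the spread between 2 libraries per group, and the edgeR fit shares that spread in part across all tested genes.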

Additional observations from a re-analysis of the deposited data

How the results depend on the processing

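No synthetase gene was called at an adjusted p of 0.05 in any alternative, and none at an adjusted p under 0.10 in the main edgeR fit. The 0.10 threshold was not applied to the alternatives. There, Iars2 had an adjusted p of 0.0936 in edgeR without the count filter and 0.0783 with DESeq2. The number of all genes called was 85, and it moved to 559 without the count filter, 147 with a minimum count of 50, 398 with DESeq2 and 166 at an adjusted p under 0.10, and ran between 73 and 187 with a library left out (187 without Ctrl replicate 2). The cytosolic median stayed between -0.20 and -0.13. The mitochondrial median ran between 0.020 (without dKO replicate 1) and 0.10 with a library left out. The cytosolic minus mitochondrial difference of medians was -0.24, with -0.21 for rounded expected counts and a range between -0.27 and -0.18 with a library left out. Across genes, the deviations of same-numbered libraries from their group means correlated at -0.0544. With 2 libraries per group this is a single value, so it cannot tell what a shared number marks. The replicate block gave 100 called genes, 0 of them synthetases. Of 36 genes, 18 kept their direction in all 13 alternatives, Iars2 and Aars among them, while 31 of 468 values turned sign. With a library left out, 11 of these 18 still moved by over 1.5 times: Cars (between -0.57 and -0.17), Ears2 (0.059 and 0.53), Farsb (-0.48 and -0.14), Iars (-0.59 and -0.20), Mars (-0.29 and -0.053), Mars2 (-0.38 and -0.18), Rars2 (0.045 and 0.29), Tars (-0.43 and -0.16), Wars (-0.20 and -0.017), Yars (-0.35 and -0.13) and Yars2 (0.16 and 0.84). Iars2 ran between 0.79 and 0.92 with an adjusted p between 0.0783 and 0.593. With rounded expected counts only Hars2 turned, to 0.021. All other turns came from leaving out a library, and the cause was not tested. The log2 fold changes then ran as follows: Aars2 between -0.11 and 0.34, Cars2 between -0.13 and 0.41, Dars between -0.21 and 0.16, Fars2 between -0.11 and 0.16, Farsa between -0.19 and 0.26, Hars between -0.094 and 0.13, Hars2 between -0.068 and 0.011, Lars2 between -0.35 and 0.62, Nars2 between -0.10 and 0.11, Pars2 between -0.29 and 0.30, Qars between -0.011 and 0.35, Rars between -0.041 and 0.42, Sars between -0.14 and 0.19, Sars2 between -0.32 and 0.13, Tars2 between -0.25 and 0.073, Vars between -0.036 and 0.18, Vars2 between -0.30 and 0.62 and Wars2 between -0.17 and 0.31.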

Other observations

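The remaining companion lists gave 0 calls in edgeR's test. Among 9 translation elongation factors the median log2 fold change was 0.04, and 1 gene had an unadjusted p under 0.05: Tufm, the mitochondrial factor that carries charged tRNA to the ribosome, was at 46.6 and 55.2 CPM in dKO and 39.6 and 34.9 CPM in Ctrl (log2 fold change 0.45, SE 0.20, edgeR adjusted p = 0.471). Tsfm, which recycles that factor, was at 7.16 and 8.17 CPM in dKO and 10.5 and 9.64 CPM in Ctrl, and Eef1d at 86.9 and 109 CPM in dKO and 131 and 100.3 CPM in Ctrl. Among 6 genes of selenocysteine charging and incorporation the median was -0.13, and among 6 tested editing and synthetase-like genes 0.08, with 0 in each at an unadjusted p under 0.05. Sepsecs, which completes selenocysteine on its tRNA, was at 53.0 and 46.2 CPM in dKO and 62.8 and 54.4 CPM in Ctrl. Ptrh2, of the editing and synthetase-like list, was at 8.03 and 9.83 CPM in dKO and 6.70 and 5.72 CPM in Ctrl.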
